A study of Rattus norvegicus with 24 samples.

Results

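Gad1, Gad2, Slc32a1, Sst, Npy, Cck, Vip, Pvalb, Cnr1 and Reln are 10 genes that mark the GABAergic interneurons of the dentate gyrus and its hilus. They were chosen by name, and every probe set whose platform annotation carries exactly one of these symbols was taken. That gave 13 probe sets for 10 of the 14218 genes that the annotation names singly. RNA was measured in dentate gyrus dissected from the hippocampus of male Long-Evans rats, on single-colour Affymetrix rat arrays, to compare aged rats that differ in spatial learning with young rats. No group was treated, and the groups were set by age and by learning in the Morris water maze, a test in which a rat learns the place of a hidden platform. Aged impaired rats, 24 to 26 months old, learned worse than the young rats (7 arrays). Aged unimpaired rats of the same age scored as young rats did (6 arrays). Young rats were 6 months old (8 arrays). Each array is labelled as a biological replicate.

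GABAergic neurons make the inhibitory transmitter GABA with the enzymes GAD67 (Gad1) and GAD65 (Gad2) and load it into vesicles with the transporter VGAT (Slc32a1). In the hilus, many interneurons hold the peptides somatostatin (Sst) and neuropeptide Y (Npy) and innervate the outer dendrites of granule cells. Basket cells around the granule cell bodies hold either parvalbumin (Pvalb), a calcium-binding protein, or cholecystokinin (Cck) together with the cannabinoid receptor CB1 (Cnr1). Interneurons that target other interneurons hold vasoactive intestinal peptide (Vip), and reelin (Reln), a secreted glycoprotein, is made by interneurons and by Cajal-Retzius cells. Several of these genes are not restricted to interneurons: granule cells hold some Gad1 RNA, and glutamatergic hippocampal neurons hold Cck and Cnr1 RNA. Counts of stained cells in sections have found fewer hilar somatostatin and GAD67 cells in aged Long-Evans rats that learn poorly. The arrays measured RNA of the whole dissected tissue, in which fewer cells of a type and less RNA per cell cannot be told apart.

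Of the 10 genes, 8 could be tested, through 11 of their 13 probe sets. A probe set was tested if its deposited log2 level was above 4 on at least 6 arrays, and 15177 probe sets, 8737 genes among them, met that. Gad2 did not: its probe set 1369462_at lay between 3.01 and 3.29 on the 21 arrays, and on none of them above 4. Vip, through 1377146_at, lay between 2.75 and 3.74, again never above 4. Their levels are therefore given as description. Gad2 averaged 3.20 in aged impaired rats, 3.23 in aged unimpaired rats and 3.19 in young rats, and Vip averaged 3.29 in aged impaired rats, 3.07 in aged unimpaired rats and 3.21 in young rats. Slc32a1 (1387380_at) and the weaker Reln probe set (1369093_at) were each above 4 on 18 of 21 arrays, so these 2 were measured close to the level of the filter. The weaker Cnr1 probe set (1387674_at) stayed between 4.05 and 4.59. The other probe sets lay well above the filter, and since probe sets bind with different strength, a level is compared only between groups for the same probe set.

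**Figure D1:**
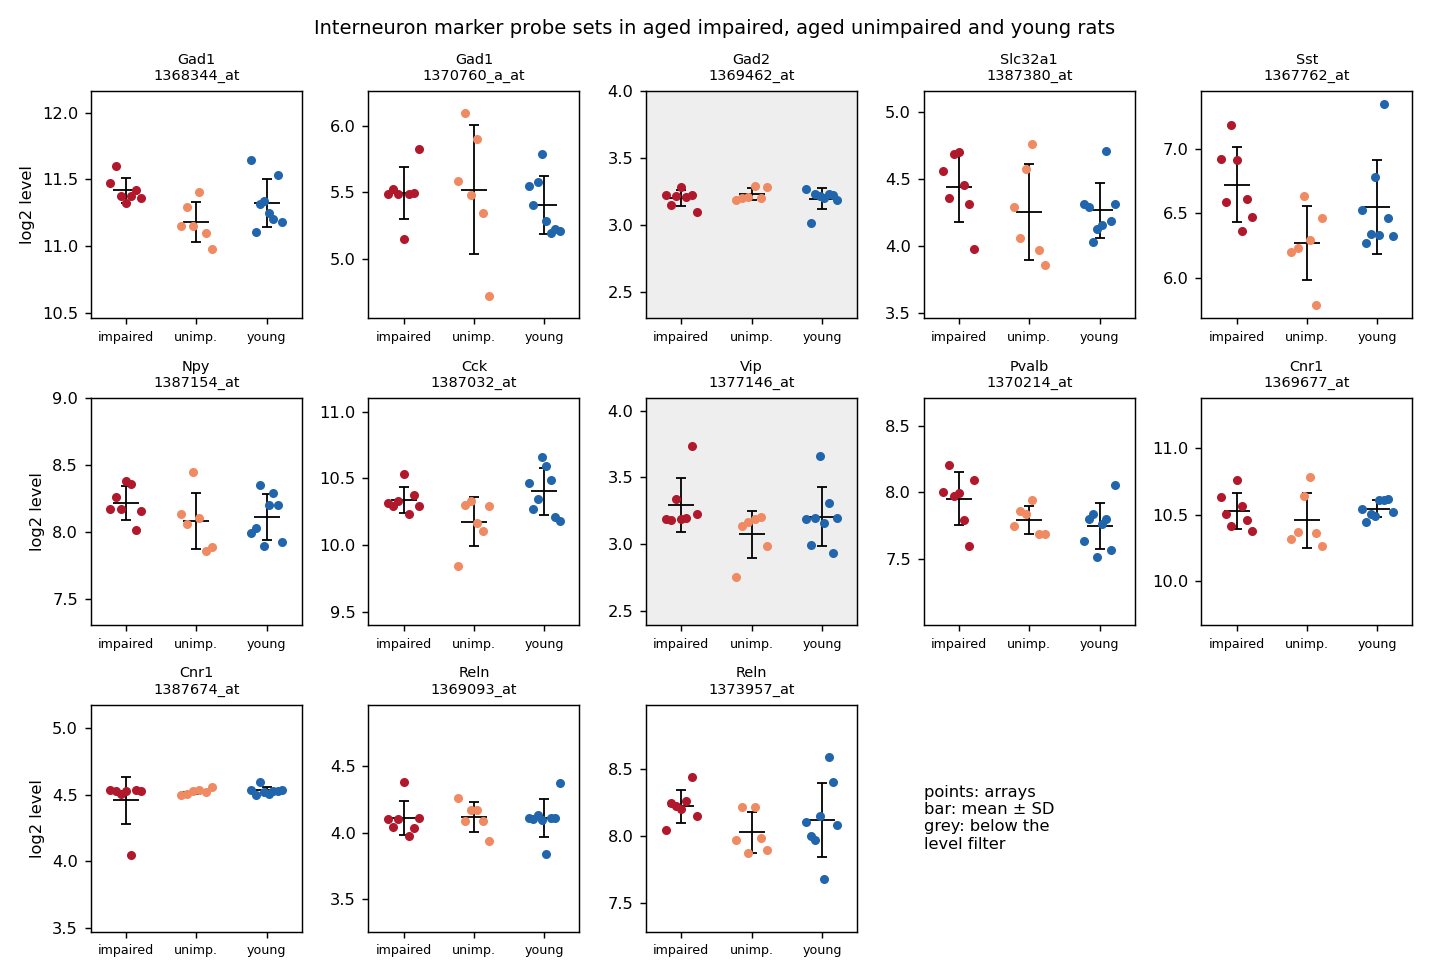
Log2 level (vertical axis) of each of the 13 probe sets on each of the 21 arrays, in aged impaired, aged unimpaired and young rats from left to right, with each group's mean and SD and a grey ground for probe sets not tested. The groups overlap in every panel, Gad2 and Vip lie below the filter level of 4, and the single young array at 7.35 stands above the rest in the Sst panel.

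The 21 arrays were alike in their overall signal. Their medians lay between 3.77 and 3.84, and 48.3% to 48.8% of probe sets were above 4 on each. Granule neuron markers, Prox1 and Calb1 among them, were measured in all groups: 9 of the 9 on the array passed the filter, with a mean level of 9.81 to 10.17 in aged impaired rats, 9.80 to 10.10 in aged unimpaired rats and 9.65 to 10.14 in young rats. Markers of the meninges stood apart on a few arrays. The mean of the 4 tested of 15 meningeal markers was 9.41, 9.20 and 8.21 in aged impaired replicates 2, 3 and 7, against 7.01 to 7.27 in aged unimpaired rats and 7.20 to 7.70 in young rats, where replicate 5 was the highest. The collagens, Dcn and Lum did not pass the filter. Values without these 4 arrays are given beside a part of the results.

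No interneuron marker passed the test in any comparison of the groups. In aged impaired minus young rats, 0 of the 8 genes reached an adjusted p below 0.05 in limma's test, against 0.514% of all probe sets tested. The smallest adjusted p among the 11 probe sets was 0.300 (limma). At an unadjusted p below 0.05, 1 of the 11 probe sets was found, that of Pvalb, which was higher, against 12.4% of all probe sets.

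In aged unimpaired minus young rats, 0 of the 8 genes passed, against 1.13% of all probe sets, and the smallest adjusted p was 0.169 (limma). At an unadjusted p below 0.05, 1 of the 11 probe sets was found, that of Cck, which was lower, against 17% of all. In aged impaired minus aged unimpaired rats, 0 genes passed, as did 0% of all probe sets, and the smallest adjusted p of a marker was 0.210 (limma). Here 2 of the 11 probe sets, the stronger one of Gad1 and that of Sst, had an unadjusted p below 0.05, both higher, against 14.5% of all. The shares of markers found at this threshold were thus near those of all probe sets.

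Most of the markers had their lowest mean in the aged unimpaired rats, though none of these differences passed the test. With each gene taken by its stronger probe set, all 8 genes were higher in aged impaired than in aged unimpaired rats, with a median difference of 0.17. Over all 8737 genes tested, 74.7% were higher and the median was 0.055. The aged unimpaired rats had lower means than the young rats in 7 of the 8 genes, with a median of -0.091. Over all genes tested, 67.2% were lower in aged unimpaired rats and the median was -0.040. When each array was centred on its own median, 8 of 8 genes were still higher in aged impaired than in aged unimpaired rats, with a median of 0.11, but 5 rather than 7 of the 8 were lower in aged unimpaired than in young rats. Against young rats, 6 of the 8 genes were higher in aged impaired rats, with a median of 0.10, against 56.2% of all genes and a median of 0.011. The 3 comparisons share their arrays, so these counts are not independent of each other.

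**Figure D2:**
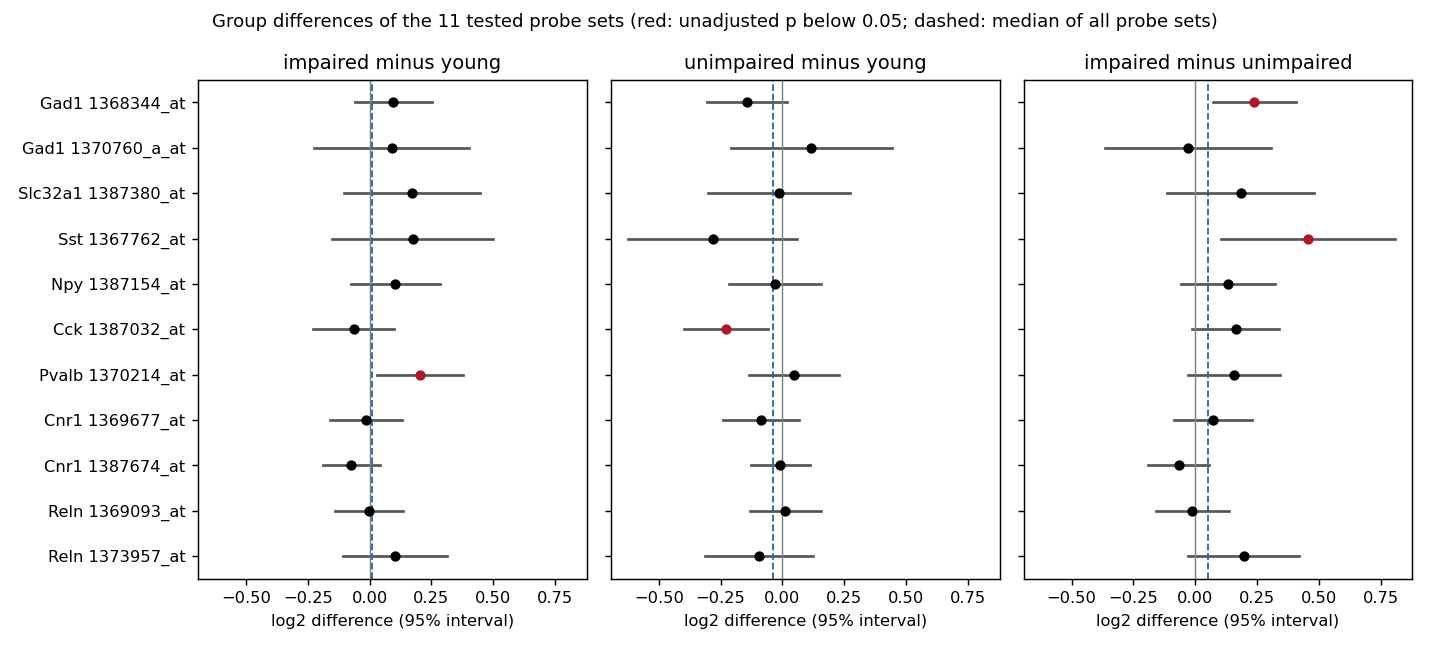
Log2 difference between groups (horizontal axis, points) with its 95% interval (bars) for the 11 tested probe sets, in the panels aged impaired minus young, aged unimpaired minus young and aged impaired minus aged unimpaired. Sst has the largest difference, 0.46 in aged impaired minus aged unimpaired rats, the dashed line marks the median of all probe sets tested, and red points have an unadjusted p below 0.05.

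The intervals bound the size of group differences in the signal of the tested probe sets. Gad2 and Vip have none. Slc32a1 and the weaker Reln and Cnr1 probe sets lay near the filter level, which limits what their intervals show. In all 3 comparisons every one of the 11 intervals lay within 1 on the log2 scale, that is within a doubling or halving of the signal. The widest reach was in aged impaired minus aged unimpaired rats, where the intervals ran from -0.36 to 0.81. In aged impaired minus young rats they ran from -0.23 to 0.50, and in aged unimpaired minus young rats from -0.62 to 0.44.

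Among the genes of GABA synthesis and storage, Gad1 had the smallest p of all markers. Its stronger probe set, 1368344_at, lay at 11.32 on the lowest, 11.38 on the median and 11.60 on the highest array of aged impaired rats, against 10.98, 11.15 and 11.41 in aged unimpaired rats. All 7 aged impaired arrays lay above the aged unimpaired mean and 5 of the 6 aged unimpaired arrays lay below every aged impaired array, but aged unimpaired replicate 6, at 11.41, lay among them. Young rats spanned 11.11 to 11.64, with a median of 11.28, and their range contained all 7 aged impaired arrays. The aged impaired mean was 0.24 ± 0.081 (SE) above the aged unimpaired mean, a fold of 1.18 with a 95% interval of 1.05 to 1.33. Its limma adjusted p was 0.210, with an unadjusted p of 0.00742, and the two-sided exact permutation test gave p = 0.00583. Without the 4 arrays of high meningeal signal the difference was 0.20 ± 0.097 (SE, limma unadjusted p = 0.0519, adjusted p = 0.443).

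Against young rats, Gad1 was 0.096 ± 0.075 (SE) higher in aged impaired rats (limma adjusted p = 0.655), or 0.044 without those 4 arrays, and 0.14 ± 0.078 lower in aged unimpaired rats, with a 95% interval from -0.31 to 0.020 (limma adjusted p = 0.364). Young replicate 9, the highest array at 11.64, is listed among the aged unimpaired arrays in the deposited sample order and was grouped by its title. Without it the aged unimpaired minus young difference was -0.097. The weaker Gad1 probe set, 1370760_a_at, did not share this order. It averaged 5.49 ± 0.20 in aged impaired rats, 5.52 ± 0.48 in aged unimpaired rats and 5.40 ± 0.21 in young rats (SD). Its aged impaired minus aged unimpaired difference was -0.028 ± 0.16 (SE), with a 95% interval from -0.36 to 0.31. The mean of both Gad1 probe sets differed by 0.11 between aged impaired and aged unimpaired rats (limma adjusted p = 0.668).

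Slc32a1, the vesicular GABA transporter, had 3.98, 4.46 and 4.71 as its lowest, median and highest level in aged impaired rats, against 3.86, 4.18 and 4.76 in aged unimpaired rats and 4.03, 4.24 and 4.71 in young rats. The 3 groups overlapped over nearly their whole ranges. Its difference was 0.18 ± 0.14 (SE) in aged impaired minus aged unimpaired rats (limma adjusted p = 0.563) and 0.17 ± 0.13 in aged impaired minus young rats (limma adjusted p = 0.655). Aged unimpaired minus young rats gave -0.014 ± 0.14, with a 95% interval from -0.30 to 0.27.

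Among the peptides, Sst had the largest difference of all markers. Its probe set 1367762_at lay at 6.36, 6.62 and 7.19 on the lowest, median and highest array of aged impaired rats, against 5.78, 6.26 and 6.63 in aged unimpaired rats. All 7 aged impaired arrays were above the aged unimpaired mean and 3 of them were above every aged unimpaired array, while aged unimpaired replicates 4 and 8, at 6.63 and 6.47, lay within the aged impaired range. The mean was 0.46 ± 0.17 (SE) higher in aged impaired rats, a fold of 1.37 with a 95% interval of 1.08 to 1.75, and 99.3% of all probe sets tested had a smaller difference.

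The Sst difference between the aged groups did not pass: its limma adjusted p was 0.235, with an unadjusted p of 0.0132, and the two-sided exact permutation test gave p = 0.0157. It was 0.40 with each array centred on its median (limma adjusted p = 0.436), and it ran from 0.36 without aged unimpaired replicate 7 to 0.53 without aged unimpaired replicate 4. The 3 aged impaired arrays with high meningeal markers included replicate 3, whose Sst level of 7.19 was the highest of its group. Without these 3 arrays and young replicate 5 the difference was 0.40 ± 0.15 (SE, limma adjusted p = 0.366).

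Young rats spanned 6.27 to 7.35 in Sst, with a median of 6.40. Young replicate 5, at 7.35, was higher than every other array of the study, and the other 7 young arrays, from 6.27 to 6.78, overlapped both aged groups. Sst differed by 0.17 ± 0.16 (SE) in aged impaired minus young rats, with a 95% interval from -0.15 to 0.50 (limma adjusted p = 0.708). That difference was 0.29 without young replicate 5 and 0.097 without aged impaired replicate 3. In aged unimpaired minus young rats it was -0.28 ± 0.16, with a 95% interval from -0.62 to 0.058 (limma adjusted p = 0.391), and -0.17 without young replicate 5. The lower bound of the aged impaired minus young interval corresponds to a fold of 0.900 and the upper to 1.42.

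Npy, which is held by many of the same hilar cells as Sst, varied less. Its lowest, median and highest level was 8.02, 8.17 and 8.38 in aged impaired rats, 7.86, 8.08 and 8.45 in aged unimpaired rats, and 7.90, 8.11 and 8.35 in young rats. No group lay apart. The differences were 0.13 ± 0.092 (SE) in aged impaired minus aged unimpaired rats (limma adjusted p = 0.515), 0.10 ± 0.086 in aged impaired minus young rats and -0.029 ± 0.089 in aged unimpaired minus young rats.

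Cck was the marker that came closest to a difference from young rats. It lay at 9.85, 10.23 and 10.33 on the lowest, median and highest aged unimpaired array, against 10.18, 10.41 and 10.66 in young rats. All 6 aged unimpaired arrays were below the young mean and 3 of them, replicates 1, 6 and 7, were below every young array. The mean was lower in aged unimpaired rats, at -0.23 ± 0.082 (SE), a fold of 0.854 with a 95% interval of 0.758 to 0.961. It did not pass: its limma adjusted p was 0.169, with an unadjusted p of 0.0115, and the two-sided exact permutation test gave p = 0.0350.

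Cck in aged impaired rats had a lowest, median and highest level of 10.24, 10.32 and 10.53, inside the young range on all 7 arrays. Aged impaired minus young rats gave -0.064 ± 0.079 (SE), with a 95% interval from -0.23 to 0.10 (limma adjusted p = 0.800). Aged impaired minus aged unimpaired rats gave 0.16 ± 0.085 (limma adjusted p = 0.382), with all 7 aged impaired arrays above the aged unimpaired mean. With both aged groups together against young rats, 0 of the 8 genes passed, against 1.11% of all probe sets, and Cck was the 1 probe set with an unadjusted p below 0.05, against 14.6% of all. Its aged minus young difference was -0.15 ± 0.068 (limma adjusted p = 0.327), and the differences of the 11 probe sets ran from -0.15 to 0.13.

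Pvalb, the marker of fast-spiking basket cells, was, of the 8 tested genes taken by their stronger probe sets, the one with a higher mean in both aged groups than in young rats, although Slc32a1 and Npy were too when each array was centred on its median. Its lowest, median and highest level was 7.60, 8.00 and 8.20 in aged impaired rats, 7.69, 7.79 and 7.94 in aged unimpaired rats, and 7.52, 7.78 and 8.06 in young rats. Of the 7 aged impaired arrays, 6 were above the young mean and 2 were above every young array, while replicate 7, at 7.60, lay near the bottom of the young range. The aged impaired minus young difference was 0.20 ± 0.083 (SE), a fold of 1.15 with a 95% interval of 1.02 to 1.30 (limma unadjusted p = 0.0231, adjusted p = 0.300), and the two-sided exact permutation test gave p = 0.0583.

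Pvalb in aged unimpaired minus young rats differed by 0.047 ± 0.087 (SE, limma adjusted p = 0.829). Between the aged groups, 5 of the 7 aged impaired arrays lay above every aged unimpaired array, and replicate 7 lay below them all. That difference was 0.16 ± 0.089 (limma adjusted p = 0.425).

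Cnr1 was the steadiest of the strongly measured markers. Its probe set 1369677_at lay at 10.37, 10.50 and 10.76 on the lowest, median and highest array of aged impaired rats, at 10.27, 10.37 and 10.78 in aged unimpaired rats and at 10.45, 10.53 and 10.62 in young rats. The 8 young arrays lay close together, and both aged groups reached above and below them. Its differences were 0.073 ± 0.075 (SE) in aged impaired minus aged unimpaired rats, -0.013 ± 0.070 in aged impaired minus young rats and -0.087 ± 0.073 in aged unimpaired minus young rats (limma adjusted p = 0.674, 0.965 and 0.574).

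Reln (1373957_at) had a lowest, median and highest level of 8.04, 8.22 and 8.44 in aged impaired rats, 7.87, 7.98 and 8.22 in aged unimpaired rats, and 7.67, 8.09 and 8.59 in young rats. All 7 aged impaired arrays were above the aged unimpaired mean and 4 were above every aged unimpaired array, while the young arrays reached beyond both aged groups on either side. Reln differed by 0.20 ± 0.11 (SE) in aged impaired minus aged unimpaired rats, with a 95% interval from -0.029 to 0.42 (limma adjusted p = 0.411), and the two-sided exact permutation test gave p = 0.0274. In aged impaired minus young rats it differed by 0.10 ± 0.10 (limma adjusted p = 0.740) and in aged unimpaired minus young rats by -0.095 ± 0.11 (limma adjusted p = 0.687). The weaker Reln probe set averaged 4.11 ± 0.13 in aged impaired rats, 4.12 ± 0.11 in aged unimpaired rats and 4.11 ± 0.14 in young rats (SD).

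Apart from the groups, most pairs of markers correlated weakly between rats. The r of all pairs of genes was not computed, so the values below have no background beside them. After each group's mean was removed, Pearson's r over the 21 arrays was above 0 in 21 of the 28 pairs of the 8 tested genes and ran from -0.19 to 0.73, with a median of 0.21. One pair passed after Benjamini-Hochberg adjustment over the 28 pairs, Slc32a1 with Cnr1, at r = 0.73 (permutation of arrays within groups, p = 0.00114, adjusted p = 0.0319). Spearman's rho for that pair was 0.66, with an adjusted permutation p of 0.0935, and r was 0.59 without aged unimpaired replicates 6 and 8, the 2 arrays farthest from the median of Slc32a1. It was 0.86 without the 4 arrays of high meningeal signal (adjusted permutation p = 0.0473). Within the groups its r was 0.63 in aged impaired, 0.92 in aged unimpaired and 0.33 in young rats. Without those 4 arrays it was 0.98 in aged impaired and 0.92 in aged unimpaired rats, but -0.14 in young rats. No pair passed by Spearman's rho.

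Another 2 pairs had an unadjusted permutation p below 0.05. Slc32a1 and Sst gave r = 0.58 (permutation p = 0.00776, adjusted p = 0.109) and rho = 0.50 (adjusted p = 0.185), and r was 0.75 without the same 2 arrays but 0.38 without the 4 arrays of high meningeal signal (permutation p = 0.244). Npy and Cnr1 gave r = 0.54 (permutation p = 0.0238, adjusted p = 0.222) and rho = 0.54 (adjusted p = 0.121), and r was 0.43 without the 2 arrays farthest in Npy. Gad1 and Slc32a1 gave r = 0.15 (permutation adjusted p = 0.780), and Sst and Npy gave r = 0.27 and rho = 0.18 (permutation adjusted p = 0.638 for r).

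**Figure D3:**
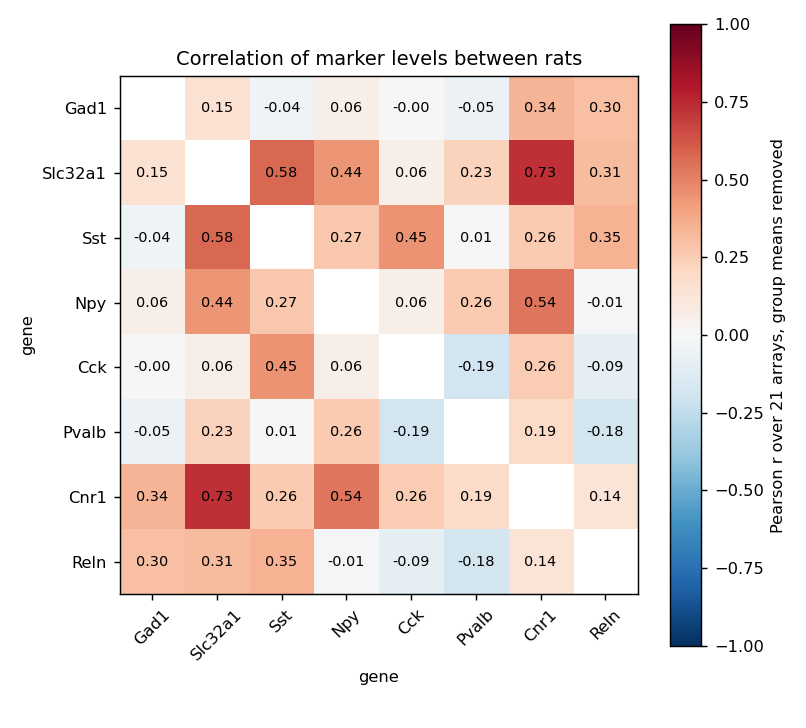
Pearson's r between each pair of the 8 tested genes (both axes) over the 21 arrays after removal of group means, as colour and number. Slc32a1 with Cnr1, at 0.73, is the highest, and Gad1 is near 0 with Sst, Npy, Cck and Pvalb.

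The genes whose levels followed Gad1 most closely over the 21 arrays, group means removed, were not other interneuron markers. Among 8736 other genes they were Elovl5, a fatty acid elongase, and Mrps6, a mitochondrial ribosomal protein (both r = 0.79), then Ube2q2 (0.77), Marchf8 (0.75) and Mcfd2 (0.74). The marker nearest to Gad1 was Cnr1, in place 1923 with r = 0.34. For Sst they were Gpsm1, a modulator of G protein signalling (r = 0.74), Itih3 (0.72), Epb41, a protein of the membrane skeleton (0.70), Arhgap6 (0.69) and Asic1, an acid-sensing ion channel (0.68). Slc32a1 stood in place 46 for Sst, Cck in place 191 and Gad1 in place 4284. These values rank genes over 21 arrays and carry no test.

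Genes that act with the markers were described through 6 lists, which hold 79 genes, of which 61 are on the array and 32 were tested. None of the 32 passed in any comparison. At an unadjusted limma p below 0.05 there were 5 in aged impaired minus young rats, 7 in aged unimpaired minus young rats and 4 in aged impaired minus aged unimpaired rats, against 12.4%, 17% and 14.5% of all probe sets in these comparisons. Their median difference was 0.010 in aged impaired minus young, -0.00073 in aged unimpaired minus young and 0.032 in aged impaired minus aged unimpaired rats.

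**Figure D4:**
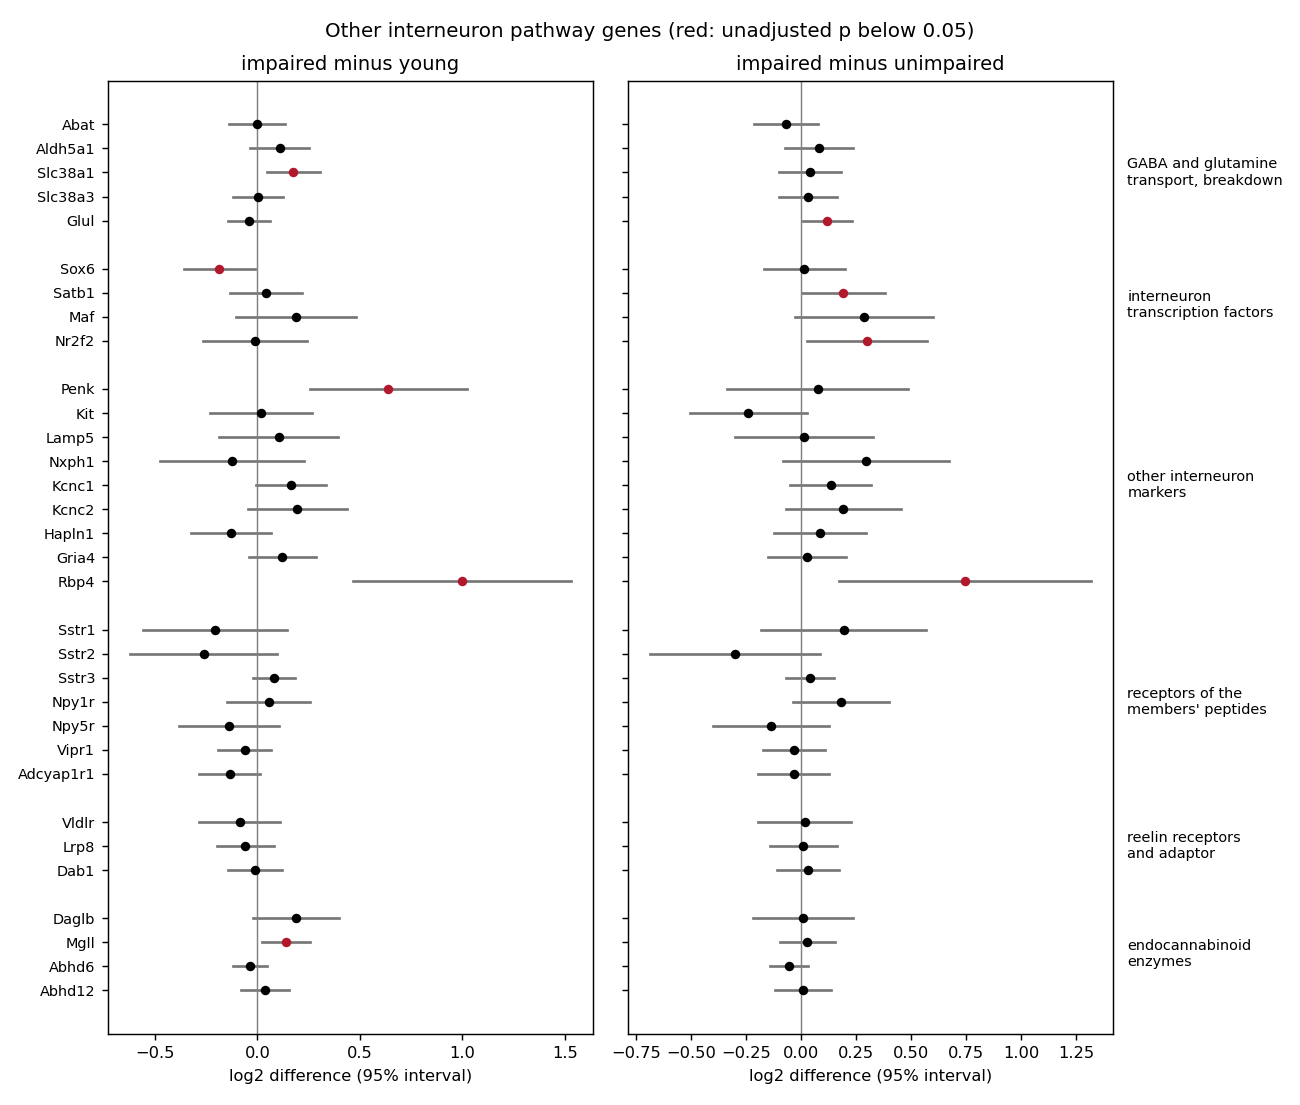
Log2 difference (horizontal axis, points) with its 95% interval (bars) for the tested genes of the 6 lists of related genes, by list, in the panels aged impaired minus young and aged impaired minus aged unimpaired, with red points for an unadjusted p below 0.05. Rbp4 and Penk lie farthest to the right in aged impaired minus young rats, at 0.998 and 0.64, and neither passed.

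Of the list of GABA transport and breakdown, 5 of 11 genes were tested. Slc38a1, a glutamine transporter of GABAergic neurons, averaged 9.75 in aged impaired, 9.71 in aged unimpaired and 9.57 in young rats. Its aged impaired minus young difference was 0.18 ± 0.063 (SE, limma adjusted p = 0.225). Glul, the glutamine synthetase of astrocytes, differed by -0.16 ± 0.052 in aged unimpaired minus young rats (limma adjusted p = 0.132) and by 0.12 ± 0.053 in aged impaired minus aged unimpaired rats (limma adjusted p = 0.305). With the arrays of high meningeal signal left out, Glul differed by 0.091 in aged impaired minus aged unimpaired rats. Its other tested probe sets differed there in the opposite direction, by -0.081 and -0.061. All were lower in aged unimpaired than in young rats without those arrays, at -0.15, -0.048 and -0.087. Aldh5a1 and Abat, enzymes of GABA breakdown, differed by 0.11 and -0.00016 in aged impaired minus young rats.

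Of the transcription factors of interneuron development, 4 of 15 were tested, and all 4 were higher in aged impaired than in aged unimpaired rats, with a median of 0.24, while all 4 were lower in aged unimpaired than in young rats, with a median of -0.18. Over all genes tested, 74.7% were higher and 67.2% lower in these comparisons. None of the 4 passed, and their aged impaired minus aged unimpaired median was 0.14 without the 4 arrays of high meningeal signal. Nr2f2, held by interneurons from the caudal ganglionic eminence and also by vascular cells, averaged 8.96 in aged impaired, 8.66 in aged unimpaired and 8.97 in young rats. It differed by 0.30 ± 0.13 (SE) in aged impaired minus aged unimpaired rats (limma adjusted p = 0.296). Satb1 and Maf, factors of somatostatin and parvalbumin interneurons, differed by 0.19 ± 0.090 and 0.29 ± 0.15 in that comparison (limma adjusted p = 0.333 and 0.391). Maf differed by 0.092 without those 4 arrays, and its other tested probe set by -0.11. Sox6 differed by -0.18 ± 0.082 in aged impaired minus young rats (limma adjusted p = 0.358).

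Among other interneuron markers, 9 of 30 were tested. Of the 9, 7 were higher in aged impaired than in young rats, none past the test, against 56.2% of all genes. In aged unimpaired minus young rats 7 of the 9 were higher too. Penk, the precursor of enkephalins, which granule cells also make, lay at 9.65, 10.19 and 10.53 on the lowest, median and highest array of aged impaired rats, at 9.19, 10.31 and 10.49 in aged unimpaired rats and at 8.91, 9.61 and 9.80 in young rats. Its aged impaired minus young difference was 0.64 ± 0.18 (SE, limma adjusted p = 0.128) and its aged unimpaired minus young difference 0.56 ± 0.19 (limma adjusted p = 0.146). Rbp4, a retinol carrier that choroid plexus and meninges also hold, lay at 7.27, 8.03 and 9.05 in aged impaired rats, at 6.70, 7.52 and 7.72 in aged unimpaired rats and at 6.36, 7.04 and 8.14 in young rats. It differed by 0.998 ± 0.26 in aged impaired minus young rats (limma adjusted p = 0.0808) and by 0.72 ± 0.22 without the 4 arrays with high meningeal markers (limma adjusted p = 0.271). Kit, a receptor kinase, and Kcnc1, a fast potassium channel of parvalbumin cells, differed by 0.017 and 0.16 in aged impaired minus young rats, and Kcnc1 by 0.093 without the same 4 arrays. Kit differed by -0.24 ± 0.13 in aged impaired minus aged unimpaired rats (limma adjusted p = 0.398) and by 0.26 ± 0.12 in aged unimpaired minus young rats (limma adjusted p = 0.300).

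Of the receptors for the peptides above, 7 of 13 were tested. Of the 7, 5 were lower in aged impaired than in young rats, with a median of -0.13, none past the test. In aged unimpaired minus young rats 5 of the 7 were lower too, with a median of -0.031. Over all genes tested, 56.2% were higher in the first comparison and 67.2% lower in the second. Sstr2, a somatostatin receptor, lay at 6.66, 7.33 and 7.74 on the lowest, median and highest array of aged impaired rats, at 7.01, 7.54 and 8.10 in aged unimpaired rats and at 7.12, 7.57 and 8.00 in young rats. It differed by -0.30 ± 0.19 (SE) in aged impaired minus aged unimpaired rats (limma adjusted p = 0.463), where Sst itself differed by 0.46. The other tested somatostatin receptors, Sstr1 and Sstr3, differed by 0.19 ± 0.18 and 0.043 ± 0.052 in that comparison. Npy1r, a receptor of neuropeptide Y, differed by 0.18 ± 0.10 in that comparison (limma adjusted p = 0.431).

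The reelin receptors Vldlr and Lrp8 and their adaptor Dab1 were all tested. They differed by -0.085, -0.059 and -0.011 in aged impaired minus young rats, none past the test. Of the enzymes that make or break down endocannabinoids, the ligands of CB1, 4 of 7 were tested. Mgll, which breaks down the endocannabinoid 2-AG, differed by 0.14 ± 0.056 (SE) in aged impaired minus young rats (limma adjusted p = 0.286), and Daglb, which makes it, by 0.19 ± 0.10 (limma adjusted p = 0.465). Without the 4 arrays of high meningeal signal, Mgll differed by 0.13 in this comparison, and its other tested probe sets by 0.051 and -0.14.

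Oligodendrocyte and endothelial markers were also low in the aged unimpaired group, in which most interneuron markers had their lowest means. Granule neuron markers were split: 5 of the 9 tested were higher in aged unimpaired than in young rats and 4 lower, with a median of 0.025. The 3 with an unadjusted limma p below 0.05 were Calb1 and C1ql3, at -0.22 and -0.27, and Dsp, at 0.59. None of the 3 passed (limma adjusted p = 0.134, 0.253 and 0.202). All 7 tested oligodendrocyte markers and all 6 tested endothelial markers were lower in that comparison, with medians of -0.32 and -0.28, against 67.2% of all genes. Of these, Cldn11 and Mal, proteins of myelin, fell by 0.64 ± 0.10 and 0.63 ± 0.11 (SE, limma adjusted p = 0.00622 and 0.0121), and Tek and Slco1a4, a receptor and a transporter of endothelium, fell by 0.51 ± 0.087 and 0.40 ± 0.097 (limma adjusted p = 0.0102 and 0.0463). The mean level of the oligodendrocyte list lay at 10.13 to 10.64 in aged impaired rats, 9.97 to 10.31 in aged unimpaired rats and 10.35 to 10.66 in young rats. That of the endothelial list lay at 6.39 to 6.79 in aged impaired rats, 6.18 to 6.45 in aged unimpaired rats and 6.47 to 6.74 in young rats. Of the 9 tested astrocyte markers, 5 were higher in aged impaired and 2 in aged unimpaired than in young rats. Only Gfap passed among them, rising by 0.43 ± 0.092 in aged impaired minus young rats (limma adjusted p = 0.0407). Without the 4 arrays of high meningeal signal that rise no longer passed, at 0.35 ± 0.091 (limma adjusted p = 0.190). In aged unimpaired minus young rats Gfap differed by 0.37 ± 0.096 (limma adjusted p = 0.0641). There it passed without the 4 arrays, at 0.37 ± 0.081 (limma adjusted p = 0.0489). Of the 7 tested microglia markers, 6 were higher in aged impaired and 4 in aged unimpaired than in young rats. Only C1qa passed among them, rising by 0.49 ± 0.12 in aged unimpaired minus young rats (limma adjusted p = 0.0463). In aged impaired minus young rats C1qa differed by 0.41 ± 0.11 (limma adjusted p = 0.116). The part of these other cells in the differences of the interneuron markers was not tested.

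Between the aged groups the same 7 oligodendrocyte and 6 endothelial markers were all higher in aged impaired rats, with medians of 0.21 and 0.19. So were all 8 tested interneuron genes by their stronger probe sets, against 74.7% of all genes. The weaker tested probe sets of Gad1, Cnr1 and Reln were lower, at -0.028, -0.066 and -0.012. Without the 4 arrays of high meningeal signal, 6 of the 7 oligodendrocyte markers and all 6 endothelial markers were higher, with medians of 0.22 and 0.092. Of the 9 tested markers of CA pyramidal neurons, whose layers border the dentate gyrus, 7 were lower in aged unimpaired than in young rats, with a median of -0.19, and 6 were higher in aged impaired than in aged unimpaired rats, with a median of 0.13. Their mean lay between 7.27 and 7.85 in aged impaired rats, between 7.24 and 7.84 in aged unimpaired rats and between 7.33 and 7.96 in young rats. Mossy cells, the glutamatergic neurons of the hilus, were measured by only 2 of 7 markers and Cajal-Retzius cells by 2 of 9, Reln being one of them. Ttr, the only choroid plexus marker tested, reached 10.09 on aged impaired replicate 7, 9.43 on aged unimpaired replicate 3 and 10.78 on young replicate 2, and lay near 4 to 5 on most other arrays.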

How the data were processed

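The deposited table holds log2 expression values per probe set. The submitters' processing notes name GCRMA, a method of background correction, normalization and probe summary, without its settings, and the log2 scale was taken from the range of the deposited values. Of 24 labelled arrays, 3 hold no values and 21 were analysed, grouped by their titles. The table has 31099 probe sets, of which 57 controls were left out, and 15177 passed the filter. Groups were compared in 1 fit by moderated tests (R 4.3.3, limma 3.58.1, 18 residual degrees of freedom), with Benjamini-Hochberg adjustment over all 15177 probe sets. Single markers were also tested by two-sided exact permutation of arrays. Correlations were tested by 100000 permutations of arrays within groups. p-values measure the spread between labelled replicates. The labels give no batch. The fit was tested on simulated data. Alternatives changed the filter, scaling, variance model, array weights, arrays used, replicate block, groups in the fit and the choice of probe set. All 10 markers are named, with up to 4 genes of each list by smallest p in aged impaired minus aged unimpaired or aged impaired minus young rats, any gene of a list that passed, and the 5 genes nearest Gad1 and Sst. Sstr1 is named beside the other tested somatostatin receptors. The members and lists were chosen with earlier results of these data known. All 10 symbols matched RefSeq gene names. Python 3.11.15 was used for the remaining tables.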

Additional observations from a re-analysis of the deposited data

Results flagged for a closer look

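Of 39 groups of arrays examined, 3 for each of the 13 probe sets, 6 had 1 array that lay far from the rest of its group, and chance alone flags about 1 in 20 groups. All 6 lie on probe sets near or below the filter level of 4. Aged impaired replicate 7 had a Vip level of 3.74, with the other arrays of its group at 3.18 to 3.34. Aged impaired replicate 6 had a level of 4.05 on the weaker Cnr1 probe set, with the others at 4.51 to 4.53, and aged impaired replicate 4 a level of 4.38 on the weaker Reln probe set, with the others at 3.98 to 4.11. Among young rats, replicate 1 had a Gad2 level of 3.01, with the others at 3.18 to 3.26. Young replicate 5 had a Slc32a1 level of 4.71, with the others at 4.03 to 4.32, and young replicate 2 a level of 4.59 on the weaker Cnr1 probe set, with the others at 4.50 to 4.53. Young replicate 5 is also the array with the highest Sst level, 7.35.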

How the results depend on the processing

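The count of interneuron markers that passed was 0 in all 4 comparisons under every alternative run, also where the lack of a filter let Gad2 and Vip into the fit. Over 1016 alternative values of single marker differences, 977 kept their direction, 39 changed sign, and the smallest limma adjusted p was 0.134, for Cck in aged unimpaired minus young rats. Levels near 4 limit what could be seen of Gad2, Vip and Slc32a1. Counts over all probe sets moved more. They were 78 in aged impaired minus young, 172 in aged unimpaired minus young, 0 in aged impaired minus aged unimpaired and 168 in all aged minus young rats. Without a filter they were 33, 67, 0 and 90, and 29, 95, 0 and 86 when the 4 arrays of high meningeal signal were left out. With only the groups compared in the fit, they were 33 in aged impaired minus young, 69 in aged unimpaired minus young and 1 in aged impaired minus aged unimpaired rats. With the replicate block the counts were 114, 9, 0 and 76. Of 17 same-numbered pairs of arrays from different groups, 4 had a correlation of deviations above 0.1 (mean 0.022). Of 129 differently numbered pairs, 12 did (mean -0.0030). Among 19 arrays with a partner, 7 correlated best with their own number. The labels do not say whether the numbers pair the arrays, and these values do not settle it. Without single arrays the counts ran from 36 to 161 (without aged impaired replicate 2 and without young replicate 5), from 59 to 219 (without young replicate 9 and young replicate 1), from 0 to 4 (the 4 without aged unimpaired replicate 7) and from 89 to 239 (without young replicate 6 and young replicate 5). The first count moved by over 1.5 times without any of aged impaired replicates 2, 3 and 7, aged unimpaired replicate 3 and young replicates 3, 5, 6, 7 and 9. The second did so without any of aged unimpaired replicates 1, 3, 4, 6 and 8 and young replicates 6 and 9, and the last without young replicate 6 or 9. Scaling shifted their split: higher and lower calls were 47 and 31 in aged impaired minus young, 30 and 142 in aged unimpaired minus young and 61 and 107 in all aged minus young rats, but 56 and 56, 64 and 61, and 124 and 108 after quantile normalization, and 62 and 53 in aged unimpaired minus young and 116 and 87 in all aged minus young rats after median centring.

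Differences that changed sign were all small. In aged unimpaired minus young rats, Slc32a1 was 0.041 with median centring, 0.049 without the 4 arrays and 0.13 with the replicate block. Npy was 0.026 with median centring, 0.023 with quantile normalization and 0.032 with the block. The weaker Cnr1 probe set was 0.046 and 0.0085 under these 2 scalings, and the weaker Reln probe set -0.00071 with array weights. In aged impaired minus young rats, the stronger Cnr1 probe set was 0.049 without the 4 arrays and 0.027 with the block, and the weaker Reln probe set 0.034 and 0.015. The weaker Reln probe set in aged impaired minus aged unimpaired rats was 0.023 without the 4 arrays. The r of Gad1 with Slc32a1 was -0.0083 without the 2 farthest arrays. Without single arrays, values that crossed 0 ran from -0.19 to 0.087 for the weaker Gad1 probe set in aged impaired minus aged unimpaired rats. In aged unimpaired minus young rats they ran from -0.12 to 0.065 for Slc32a1, from -0.10 to 0.016 for Npy, from -0.015 to 0.00065 for the weaker Cnr1 and from -0.027 to 0.049 for the weaker Reln probe set. They ran from -0.052 to 0.012 for the stronger Cnr1 and from -0.046 to 0.037 for the weaker Reln probe set in aged impaired minus young rats. Between the aged groups they ran from -0.079 to 0.0013 for the weaker Cnr1 and from -0.057 to 0.017 for the weaker Reln probe set. In all aged minus young rats they ran from -0.094 to 0.061 for Sst and from -0.054 to 0.023 for the stronger Gad1 probe set. For Reln they ran there from -0.061 to 0.070 (stronger probe set) and from -0.033 to 0.043 (weaker). Sign changes of that comparison under the other settings are not listed. The exact permutation test moved Cck and Reln in aged impaired minus aged unimpaired rats below an unadjusted p of 0.05 (0.0466 and 0.0274, against 0.0669 and 0.0847 by limma) and Pvalb in aged impaired minus young rats above it (0.0583). The cause of these shifts was not tested.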

Other observations

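The 8 tested interneuron markers were also set against the mean levels of lists of other cell types over the 21 arrays, group means removed, a comparison chosen after seeing the data. None of the 40 pairs passed after adjustment. The smallest p was that of Cck with the granule neuron list, at r = -0.60 and rho = -0.48 (permutation of arrays within groups, p = 0.00811, adjusted p = 0.324), and r was -0.51 without the 2 arrays farthest in Cck, aged unimpaired replicate 1 and young replicate 3. Sst with the CA pyramidal list gave r = -0.45 and rho = -0.60 (permutation p = 0.0532 for r and 0.00663 for rho, adjusted p = 0.710 and 0.265), and r was -0.53 without the 2 arrays farthest in Sst, aged impaired replicate 3 and young replicate 5.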
